A study of Mus musculus with 8 samples.

Results

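The complement genes described here were *C3*, *C4b*, *C1s1*, *C1ra*, *C2*, *C7*, *Cfb*, *Cd55* and *Serping1*, which cover most steps of the cascade from the first proteases to the terminal pore and include 2 inhibitors. They were found by gene symbol, and all 9 were among the 18957 genes listed for each of 8 RNA-seq libraries. The libraries were made from ribosome-depleted RNA of cardiac fibroblasts, which were sorted from dissociated ventricles as living cells that carried PDGFRA and no hematopoietic lineage marker. There were 4 WT libraries and 4 *Pdgfra-Cre:LmnaF/F* libraries, from mice of strain C57BL/6 (mixed) that were 3 to 4 weeks old. In the *Pdgfra-Cre:LmnaF/F* mice, a BAC transgene with Cre under *Pdgfra* control removes floxed exon 2 of both copies of *Lmna*, the gene for lamin A and lamin C, and the WT mice were littermates without transgene or floxed alleles. The comparison asks how loss of LMNA in fibroblasts changes gene expression in these cells, at an age chosen to come before overt cardiac dysfunction. The model has 3 limits here. No library from mice with Cre alone was analysed. The Cre is also active in a part of cardiac myocytes during development, and the authors measured lower LMNA protein in myocytes of *Pdgfra-Cre:LmnaF/F* mice too. The labels do not say whether a library is 1 mouse or a pool, so that p-values measure the spread between these samples.

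Complement is a chain of plasma proteins that tags surfaces for removal and can perforate membranes. In the classical pathway, C1q binds a target and its partner protease C1r activates C1s. C1s then cuts C4 and C2, whose fragments form an enzyme that cuts C3. In the alternative pathway factor B takes the place of C2 and amplifies the deposition of C3 fragments. C5 to C9 then assemble the membrane attack complex, and inhibitors such as C1 inhibitor (*Serping1*) and decay-accelerating factor (*Cd55*) hold the chain in check. The liver makes most circulating complement, and fibroblasts and macrophages make part of it locally.

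The genes lie in few places of the mouse genome (GENCODE M21, GRCm38). *C4b* (chr17:34728380-34743882), *Cfb* (chr17:34856374-34862518) and *C2* (chr17:34862604-34898265) sit together on the minus strand, in the MHC class III region. *C1ra* (chr6:124512405-124523443, plus strand) and *C1s1* (chr6:124530345-124542359, minus strand) are neighbours whose 3′ ends face each other. *C3* (chr17:57203970-57228136), *C7* (chr15:4988762-5063740), *Cd55* (chr1:130439027-130462744) and *Serping1* (chr2:84765387-84775444) stand apart, all on the minus strand. Promoter sequence was read for 5 of the 9 genes, from RefSeq on GRCm38.p6, and each is given below as the 250 bases before the RefSeq transcription start on the gene's own strand. RefSeq and GENCODE can place this start differently, and the *C1ra* window lies mostly inside the GENCODE gene model, whose start is farther upstream. The 5 genes are the members with a sequence in the promoter source used, which had no entry for *C4b*, *C2*, *Cfb* and *Serping1*. The windows are chr17:57228137-57228386 for *C3*, chr6:124512371-124512620 for *C1ra*, chr6:124542360-124542609 for *C1s1*, chr15:5063774-5064023 for *C7* and chr1:130462745-130462994 for *Cd55*.
C3: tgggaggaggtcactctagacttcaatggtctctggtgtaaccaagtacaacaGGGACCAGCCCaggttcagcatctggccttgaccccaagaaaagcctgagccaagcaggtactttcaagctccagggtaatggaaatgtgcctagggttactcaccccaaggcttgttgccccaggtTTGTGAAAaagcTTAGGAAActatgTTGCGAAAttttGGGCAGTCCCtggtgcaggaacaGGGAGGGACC
C1ra: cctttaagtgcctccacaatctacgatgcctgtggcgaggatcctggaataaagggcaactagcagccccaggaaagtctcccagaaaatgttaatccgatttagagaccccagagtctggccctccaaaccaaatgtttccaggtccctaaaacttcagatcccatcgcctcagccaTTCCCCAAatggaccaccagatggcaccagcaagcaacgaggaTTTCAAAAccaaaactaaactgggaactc
C1s1: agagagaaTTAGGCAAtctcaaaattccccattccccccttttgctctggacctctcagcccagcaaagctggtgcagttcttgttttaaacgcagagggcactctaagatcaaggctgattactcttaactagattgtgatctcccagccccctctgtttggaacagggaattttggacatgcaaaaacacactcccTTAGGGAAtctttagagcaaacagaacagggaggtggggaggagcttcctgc
C7: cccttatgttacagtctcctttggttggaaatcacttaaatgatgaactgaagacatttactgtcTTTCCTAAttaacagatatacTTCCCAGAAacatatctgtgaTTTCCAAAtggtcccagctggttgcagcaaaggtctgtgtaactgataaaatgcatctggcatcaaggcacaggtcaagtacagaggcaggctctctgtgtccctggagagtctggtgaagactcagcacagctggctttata
Cd55: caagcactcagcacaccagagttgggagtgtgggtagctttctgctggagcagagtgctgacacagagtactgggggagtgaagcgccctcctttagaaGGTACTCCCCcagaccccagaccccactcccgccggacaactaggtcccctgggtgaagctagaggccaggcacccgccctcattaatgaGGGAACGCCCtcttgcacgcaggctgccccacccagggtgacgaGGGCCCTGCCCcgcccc
Capitals mark letters that match, on either strand, 1 of 4 patterns of factors with a textbook role in acute-phase and interferon responses, namely C/EBP (TTNNGNAA), NF-kB (GGGNNNNNCC), the STAT-binding GAS element (TTCNNNGAA) and ISRE (GAAANNGAAA). Overlapping matches run together in one stretch of capitals. The C/EBP letters occurred in 4 of the 5 genes, all but *Cd55*, and in 36.8% of 32817 promoter windows of the same length. *C3* held 3 such matches within 70 bases of its start, while *C1ra*, *C1s1* and *C7* held 2 each. The NF-kB letters occurred in *C3*, *Cd55* and a second start of *C1s1*, and in 45.8% of all windows. The GAS letters occurred in *C7*, from 164 to 156 bases before its start, and in 7.01% of all windows. The ISRE letters occurred in none of the 5 and in 2.97% of all windows. These matches describe the letters of the windows and are not binding sites.

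Total counts lay between 2080555 (WT replicate 2) and 12502949 (*Pdgfra-Cre:LmnaF/F* replicate 4). *Lmna* lay between 274 and 483 CPM (counts scaled to the effective library size with TMM factors) in WT and between 90.4 and 130 CPM in *Pdgfra-Cre:LmnaF/F*, a log2 fold change of -1.72 (SE 0.22, edgeR adjusted p = 0.00492). The sorted cells carried fibroblast markers, with a summed level of 8 genes of 48869 to 56433 CPM in WT and 42217 to 58684 CPM in *Pdgfra-Cre:LmnaF/F*. A summed list of 6 genes of adventitial fibroblasts (*Pi16*, *Dpp4*, *Ly6a*, *Cd34*, *Cd248*, *Sema3c*) lay between 4806 and 5977 CPM in WT and between 1820 and 4111 CPM in *Pdgfra-Cre:LmnaF/F*, lowest in replicate 3. All 6 of its genes had a lower fitted level and 1, *Cd248*, passed the threshold. The groups stood apart without overlap in 3 of the 6, all lower, beside 8.03% of all genes tested in either direction. *Cd34*, whose groups overlapped, made the largest part of the sum, with a WT mean of 3041 CPM beside 5351 CPM for the 6 genes. Leukocyte markers (8 genes) summed to 46.3 to 212 CPM in WT and 58.7 to 439 CPM in *Pdgfra-Cre:LmnaF/F*, and myocyte markers (6 genes) to 264 to 610 and 188 to 3122 CPM, both highest in *Pdgfra-Cre:LmnaF/F* replicate 4. Endothelial markers (5 genes) summed to 514 to 691 CPM in WT and 390 to 468 CPM in *Pdgfra-Cre:LmnaF/F*. The defining leukocyte marker *Ptprc* was at 0 to 12.9 CPM over the libraries.

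No member passed the threshold between the genotypes. Of the 9 genes, 8 passed the filter on low counts and 0 had an edgeR adjusted p under 0.05, beside 0.407% of the 13036 genes tested (53 DEGs). At an unadjusted p under 0.05 there were 2, *C7* and *Cd55*, both lower in *Pdgfra-Cre:LmnaF/F*, beside 11.9% of all genes tested in either direction and 5.65% in the lower direction. DESeq2 called 1 of the members, *C7*, beside 2.58% of the genes to which it gave an adjusted p, and called 2, *C7* and *Cd55*, with 1 factor of unwanted variation (RUVr) in the model, beside 3.97%. edgeR without a filter on low counts called *C7* (1.45% of all genes), and limma-voom called 0 members (1.06%). The fitted level was lower in *Pdgfra-Cre:LmnaF/F* for 6 of the 8 and higher for 2, beside 48.2% lower over all genes, and the median log2 fold change was -0.44 beside 0.02 over all genes tested. In 0 of the 8 did the groups stand apart without overlap, beside 8.03% of all genes tested. In these bulk libraries, fewer cells of a type and less RNA per cell cannot be told apart.

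**Figure D1:**
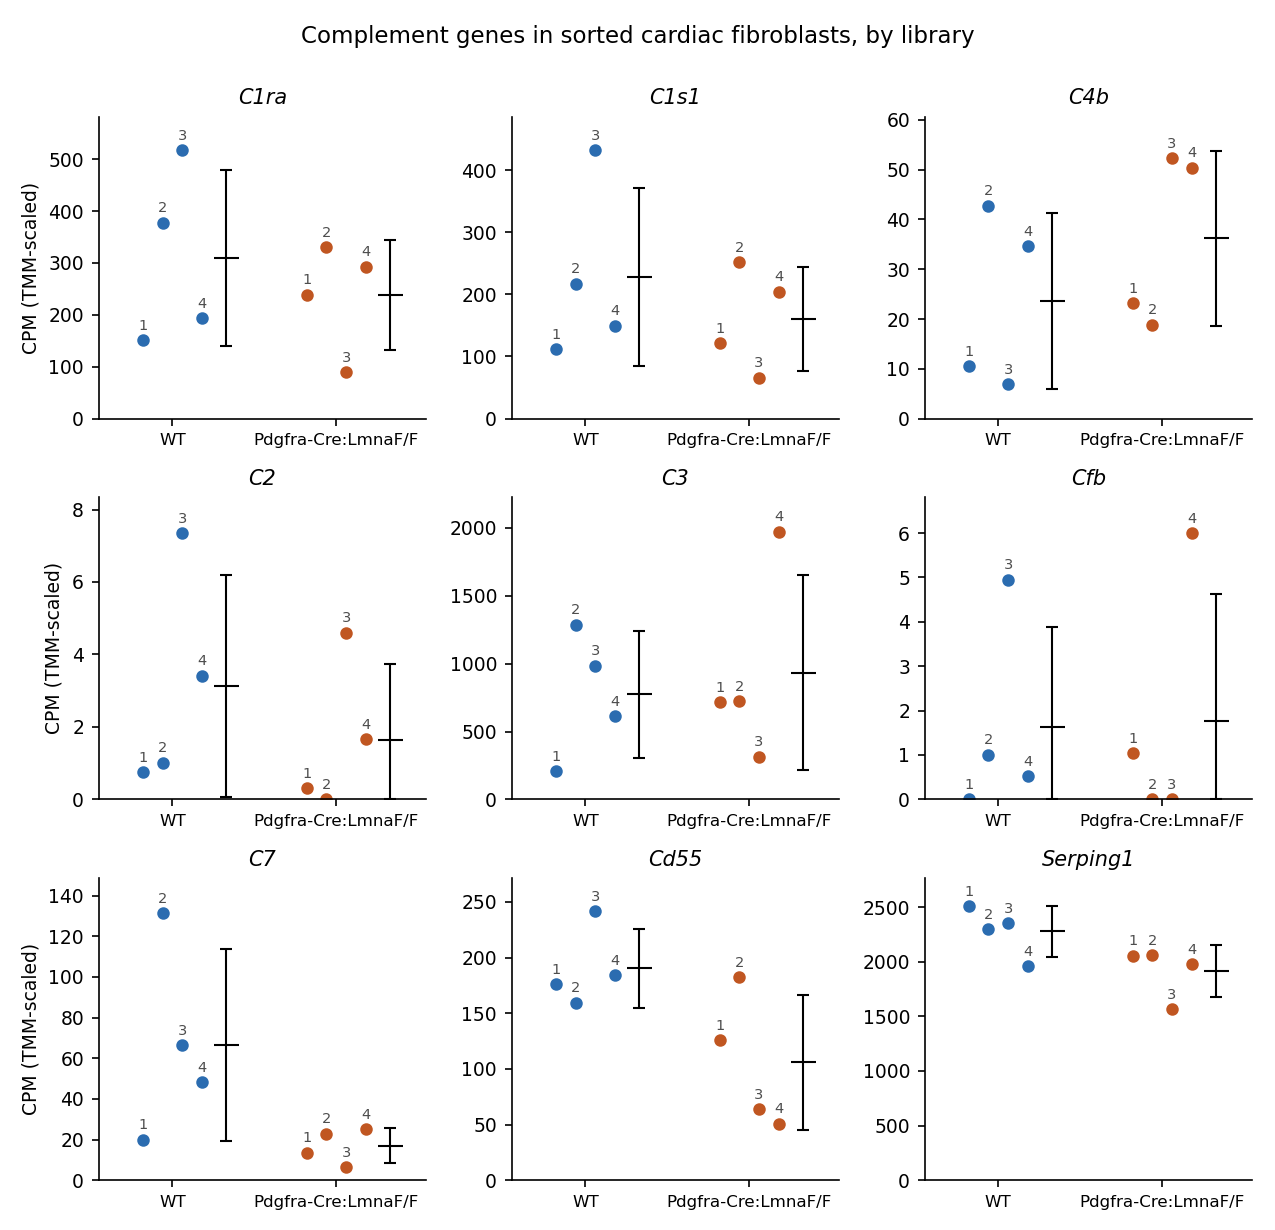
Level of the 9 complement genes in each library, in TMM-scaled CPM on axes that start at 0, with the replicate number above each point and the mean and SD of 4 libraries beside each group (bars are cut at 0). The groups overlap for every gene; *Serping1* keeps within 1563 and 2511 CPM while *C3* runs from 208 to 1972 CPM.

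The 2 proteases that open the classical pathway were expressed in every library, and neither passed the test between the genotypes. *C1ra*, the gene of C1r, stood at 151, 378, 518 and 194 CPM in WT replicates 1 to 4 and at 239, 331, 89.2 and 292 CPM in *Pdgfra-Cre:LmnaF/F* replicates 1 to 4. The means were 310 ± 170 and 238 ± 106 CPM (SD, n = 4 each). Only *Pdgfra-Cre:LmnaF/F* replicate 3 fell outside the WT range. The log2 fold change was -0.38 (SE 0.40, 95% interval -1.23 to 0.47, edgeR adjusted p = 0.794), and it lay between -0.60 (without WT replicate 1) and -0.01 (without WT replicate 3) with 1 library left out. *C1s1*, the gene of C1s, which C1r activates, stood at 111, 217, 432 and 150 CPM in WT and 121, 252, 65.5 and 204 CPM in *Pdgfra-Cre:LmnaF/F*. Its means were 227 ± 143 and 161 ± 83.4 CPM (SD, n = 4 each). The log2 fold change was -0.50 (SE 0.42, interval -1.39 to 0.39, edgeR adjusted p = 0.719), and again replicate 3 of *Pdgfra-Cre:LmnaF/F* was the lowest library of all 8. With 1 library left out the change lay between -0.80 (without *Pdgfra-Cre:LmnaF/F* replicate 2) and 0.016 (without WT replicate 3), where the sign turned. The intervals leave room for a fall of over 2-fold in either gene.

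*C1ra* and *C1s1* went up and down together. *C1ra* ranged 5.80-fold over the 8 libraries and *C1s1* 6.59-fold, while the ratio of their levels per kilobase of exon ranged 1.64-fold, from 1.26 to 2.07. The ratio was 1.42, 1.83, 1.26 and 1.36 in WT and 2.07, 1.38, 1.43 and 1.5 in *Pdgfra-Cre:LmnaF/F*, so *C1ra* was the higher in 8 of 8 libraries. Likeness of pattern was measured as the mean absolute difference over the 8 libraries between log2 CPM values centred per gene. By this measure *C1ra* was the gene nearest to *C1s1* among 9487 genes with a mean of at least 10 CPM (0.18, beside a median of 0.72 over the candidates), followed by *Galt* (0.20) and *Abracl* (0.25). For *C1ra* the nearest were *Il3ra* (0.18), *C1s1* (0.18) and *Psph* (0.25). The 8 points share their libraries and depth, and these distances are a description.

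**Figure D2:**
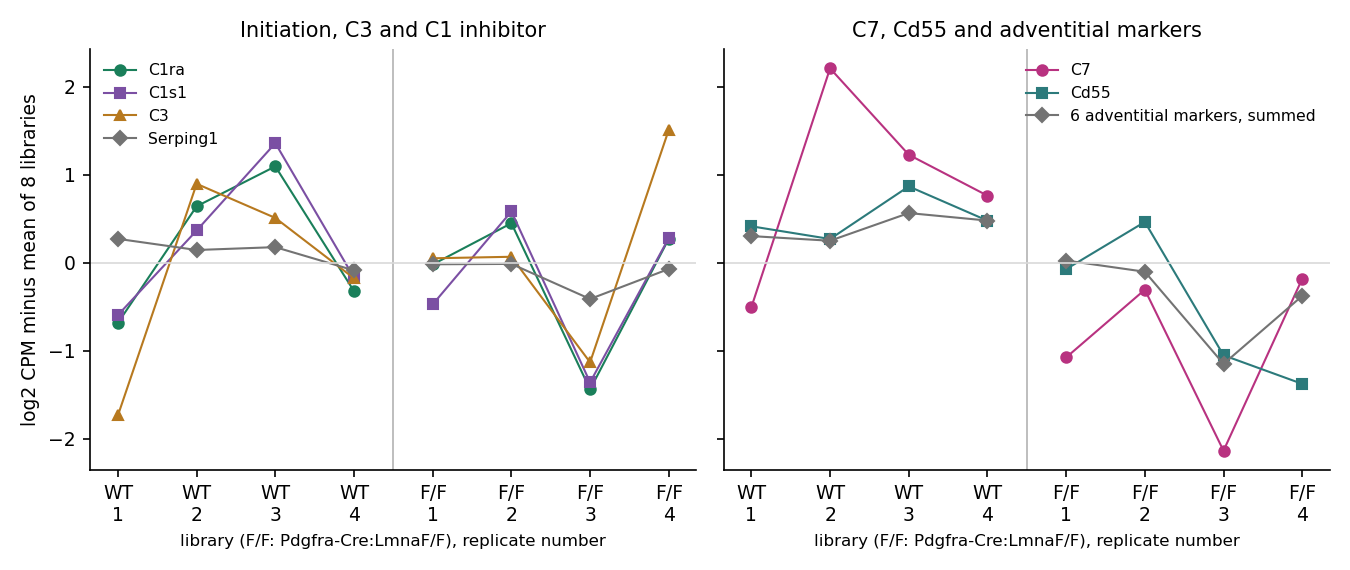
Log2 CPM of each gene minus its mean over the 8 libraries, by library; left, *C1ra*, *C1s1*, *C3* and *Serping1*; right, *C7*, *Cd55* and the sum of 6 adventitial fibroblast markers. *C1ra* and *C1s1* move together and are lowest in *Pdgfra-Cre:LmnaF/F* replicate 3, where *C7* and the adventitial sum are lowest too.

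*C4b*, which encodes the C4 that C1s cuts, had the largest fitted rise among the members and did not pass the test. Its levels were 10.6, 42.8, 6.87 and 34.6 CPM in WT and 23.2, 18.9, 52.3 and 50.4 CPM in *Pdgfra-Cre:LmnaF/F*, with means of 23.7 ± 17.7 and 36.2 ± 17.6 CPM (SD, n = 4 each). *Pdgfra-Cre:LmnaF/F* replicates 3 and 4 lay above every WT library, and the other two lay inside the WT range. On the log2 scale the difference was 0.64 (SE 0.52, interval -0.46 to 1.74, edgeR adjusted p = 0.70). It lay between 0.33 (without WT replicate 3) and 1.05 (without WT replicate 2) with 1 library left out. Replicate 3 of *Pdgfra-Cre:LmnaF/F*, the lowest library for *C1ra*, *C1s1*, *C7* and *Serping1*, was the highest for *C4b*. Its nearest genes in pattern were *Plekhg5* (0.28), *Gria1* (0.35) and *Rhobtb1* (0.36), beside a median of 0.91.

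*C2*, the protease that joins C4 fragments in the classical C3 convertase, was near the limit of detection. The counts were 8, 2, 46 and 33 in WT and 3, 0, 40 and 20 in *Pdgfra-Cre:LmnaF/F*, and 3 of the 8 libraries were at or under a floor of 3 counts, which is 0.250 to 1.51 CPM by library. Its log2 fold change was -0.94 with an interval of -3.85 to 1.97 (SE 1.36, edgeR adjusted p = 0.860), so that neither a rise nor a fall was detectable at these counts and this spread between libraries. It moved to -2.22 without *Pdgfra-Cre:LmnaF/F* replicate 3, to -0.10 without WT replicate 3 and to -1.84 in limma-voom, without passing the test. DESeq2 gave *C2* no adjusted p. The nearest genes in pattern were *Mustn1* (0.64), *Gbp9* (0.67) and *Tatdn3* (0.79), beside a median of 1.38. *Cfb*, the gene of factor B, was not tested. Its counts were 0, 2, 31 and 5 in WT and 10, 0, 0 and 72 in *Pdgfra-Cre:LmnaF/F*, with 4 libraries at or under the floor and 3 of these at 0. In both groups 1 library held most of the *Cfb* counts, WT replicate 3 and *Pdgfra-Cre:LmnaF/F* replicate 4. *C2* and *Cfb* also overlap the gene model *Gm20547* on the same strand, and the counting rule for shared reads is not given in the sources used here.

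*C3*, the component on which all pathways converge, was abundant, and its difference between the genotypes was smaller than its spread. It stood at 208, 1289, 985 and 612 CPM in WT and at 716, 725, 316 and 1972 CPM in *Pdgfra-Cre:LmnaF/F*, with means of 773 ± 468 and 932 ± 719 CPM (SD, n = 4 each). The 8 libraries ranged 9.49-fold, from WT replicate 1 to *Pdgfra-Cre:LmnaF/F* replicate 4, and the other 3 libraries of *Pdgfra-Cre:LmnaF/F* lay inside the WT range. The log2 fold change was 0.27 (SE 0.51, interval -0.83 to 1.37, edgeR adjusted p = 0.897), and its sign turned when 1 library was left out, to -0.40 without *Pdgfra-Cre:LmnaF/F* replicate 4 and to -0.04 without WT replicate 1. *Pdgfra-Cre:LmnaF/F* replicate 4 was also the library with the highest leukocyte sum (439 CPM beside 58.7 to 115 CPM in the other 3 of its group) and myocyte sum (3122 beside 188 to 387 CPM), and their part in the *C3* level was not tested. The nearest genes in pattern to *C3* were *Eef1a2* (0.37), *1110059E24Rik* (0.40) and *Pgf* (0.41), beside a median of 0.86. None of the other members was among them, *C1ra* being the closest of these at 0.50 and rank 18.

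*C7*, which joins the C5b-C6 complex and anchors the growing pore to the membrane, had the largest fitted fall of the members. It stood at 19.99, 131, 66.5 and 48.1 CPM in WT and at 13.4, 22.9, 6.45 and 25.0 CPM in *Pdgfra-Cre:LmnaF/F*, with means of 66.5 ± 47.3 and 17.0 ± 8.63 CPM (SD, n = 4 each). *Pdgfra-Cre:LmnaF/F* replicates 1 and 3 lay below every WT library, and replicates 2 and 4 lay above WT replicate 1 only, so that the groups overlapped by that library. The fitted level was 3.85-fold lower (log2 fold change -1.95, SE 0.50, interval -3.02 to -0.88), with an unadjusted p of 0.00153 and an adjusted p of 0.126 in edgeR. DESeq2 gave nearly the same change (-1.97) and an adjusted p of 0.00702. In edgeR without a filter on low counts the adjusted p was 0.000747. The fall was smallest without WT replicate 2, the shallowest library and the one with the most *C7*, at -1.40 on the log2 scale (edgeR adjusted p = 0.365). Without WT replicate 1 it was -2.25 (edgeR adjusted p = 0.0689).

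The genes nearest to *C7* in pattern were *Abcb8* (0.41), *Itga11* (0.48), the α11 subunit of a collagen-binding integrin, and *Hmcn2* (0.50), a matrix protein, beside a median of 1.10. Of these, *Itga11* (log2 fold change -2.14, edgeR adjusted p = 0.0232) and *Hmcn2* (-1.88, edgeR adjusted p = 0.0219) passed the threshold. The adventitial fibroblast sum moved in the same direction as *C7*, being lower in all 4 *Pdgfra-Cre:LmnaF/F* libraries than in any WT library and lowest, like *C7*, in replicate 3. Within the groups the match was not general, since WT replicate 2, with the most *C7*, had the lowest WT sum (4806 CPM), and *Pdgfra-Cre:LmnaF/F* replicate 1, with the highest sum of its group (4111 CPM), had less *C7* than replicates 2 and 4. The part of this sum in the *C7* level was not tested.

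*Cd55*, which encodes the membrane inhibitor that takes C3 convertases apart, was the other gene with an unadjusted p under 0.05. It stood at 176, 160, 241 and 184 CPM in WT and 126, 182, 63.8 and 50.9 CPM in *Pdgfra-Cre:LmnaF/F*, with means of 190 ± 35.6 and 106 ± 60.7 CPM (SD, n = 4 each). Replicates 1, 3 and 4 of *Pdgfra-Cre:LmnaF/F* lay below every WT library, and replicate 2 lay among them. The fitted level was 1.80-fold lower (log2 fold change -0.85, SE 0.33, interval -1.56 to -0.14), with an unadjusted p of 0.0217 and an adjusted p of 0.319 in edgeR. DESeq2 gave an adjusted p of 0.171, and 0.0455 with the RUVr factor. The nearest genes in pattern were *Cdc42ep2* (0.17), *Anxa5* (0.18) and *Leo1* (0.18), beside a median of 0.68. The adventitial sum was lower in the same 3 libraries and in replicate 2, and its part in the *Cd55* level was not tested.

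*Serping1*, the gene of C1 inhibitor, which inactivates C1r and C1s, was the most even of the members. It stood at 2511, 2299, 2352 and 1958 CPM in WT and 2055, 2061, 1563 and 1980 CPM in *Pdgfra-Cre:LmnaF/F*, with means of 2280 ± 233 and 1915 ± 237 CPM (SD, n = 4 each). WT replicate 4 lay below 3 of the 4 *Pdgfra-Cre:LmnaF/F* libraries, and replicate 3 was again the lowest. The log2 fold change was -0.25 (SE 0.20, interval -0.67 to 0.17, edgeR adjusted p = 0.690). The 8 libraries ranged only 1.61-fold. The nearest genes in pattern were *Prdx3* (0.05), *Nelfb* (0.07) and *Trim3* (0.08), beside a median of 0.36.

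Apart from *Serping1*, the members varied more between libraries of one genotype than most genes did. The SD of log2 CPM within groups was 1.12 for *C3*, 1.04 for *C4b*, 1.01 for *C7*, 0.85 for *C1s1* and 0.84 for *C1ra*, which lay between the 73.0 and 80.0 percentile of the genes tested. It was 0.63 for *Cd55* (62.4 percentile) and 0.17 for *Serping1* (3.18 percentile). The median was 0.93 over the 8 members tested and 0.49 over all genes tested. The libraries that stood apart were not the same for all genes. Replicate 3 of *Pdgfra-Cre:LmnaF/F* was the lowest of the 8 libraries for 4 members and the highest for *C4b*, WT replicate 3 was the highest for 4 members (*C1ra*, *C1s1*, *C2* and *Cd55*) and the lowest for *C4b*, and WT replicate 1 was the lowest WT library for 6 of the 9.

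Levels can be compared between genes per kilobase of exon. On this scale *Serping1* had a mean of 902 CPM per kb over the 8 libraries, in the 99.9 percentile of the genes tested, followed by *C3* with 166 (98.4 percentile). *C1ra* had 91.9 and *C1s1* 62.0 CPM per kb, *Cd55* 30.5 and *C7* 15.6, beside a median of 5.87 for the genes tested. *C4b* had 5.26, close to that median, while *C2* had 0.617 and *Cfb* 0.598. *Serping1* and *C3* were the only neighbours in this order whose ranges did not overlap (at least 672 and at most 383 CPM per kb). *C1ra* exceeded *C1s1* in 8 of 8 libraries. *C2* and *Cfb* could not be ordered, *C2* being the higher in 4 of 8, and each other pair of neighbours kept its order in 7 of 8.

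**Figure D3:**
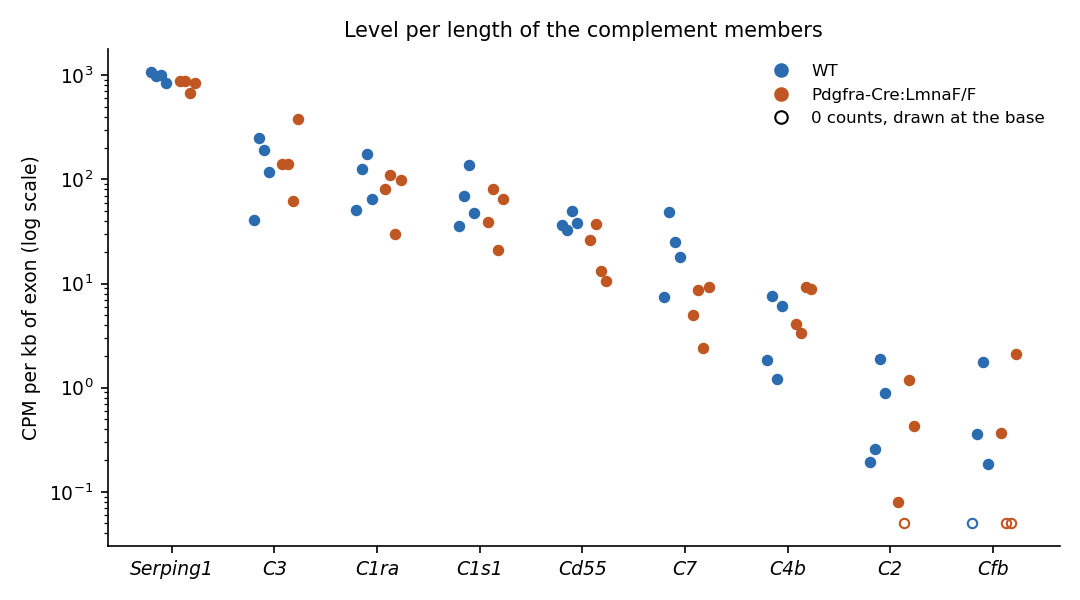
Level per length of the 9 genes in CPM per kb of exon on a log scale, each point 1 library, with libraries at 0 counts drawn as open points at the base. *Serping1* lies above all others in every library, *C3*, *C1ra* and *C1s1* follow with overlapping ranges, and *C2* and *Cfb* lie lowest.

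Some reads of the members could also come from near-identical copies. Of the 150-base windows of each member's longest transcript, 26.3% of *C1ra* also occurred in *C1rb*, 8.26% of *C4b* in *C4a*, 2.86% of *C1s1* in *C1s2* and 2.25% of *Cd55* in *Cd55b*. *C4a* is not among the genes listed, so its reads were not analysed here and the *C4b* values are uncertain to that extent. The member held nearly all counts of its pair, 98.8% to 99.9% for *C1ra*, 94.1% to 100% for *C1s1* and 99.3% to 100% for *Cd55*. These shares did not differ between the genotypes beyond the spread in exact two-sided permutation tests over the libraries, with p = 0.886, 0.629 and 0.143 and 0.886, 0.886 and 0.429 after adjustment over the 3 comparisons. The smallest p that 4 against 4 libraries allow is 0.0286. *C1s1*, *C2*, *C7* and *Cd55* each overlap a gene model on the opposite strand (*Gm16567*, *Zbtb12*, *Gm25652* and *Gm16083*), and since the strand setting of the counting is not stated, a contribution of these could not be separated.

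The rest of the complement system was read from a list of genes chosen by role, of which 47 are reported here. Of these 47, 42 were listed and 29 were tested, 16 with a higher and 13 with a lower fitted level in *Pdgfra-Cre:LmnaF/F*, and the median log2 fold change was 0.13, beside 0.02 over all genes tested. Of the 29, 0 passed the threshold in edgeR, beside 0.407% of all genes tested. DESeq2 gave no adjusted p to 8 of them and called 0 of the rest, beside 2.58% of the genes to which it gave one. These counts of 0 are near the background. At an unadjusted p under 0.05 in edgeR there were 2, *C3ar1* (higher) and *Cd93* (lower), beside 11.9% of all genes. Among 11 tested initiators 7 were fitted higher and 4 lower. *Colec12*, a scavenger receptor with a collectin domain, had 241 to 356 CPM over the libraries (log2 fold change 0.07). The 3 chains of C1q, which macrophages make and which C1r and C1s need as their partner, were low, at a sum of 19.2 to 60.4 CPM in WT and 12.3 to 124 CPM in *Pdgfra-Cre:LmnaF/F*. Their log2 fold changes were 0.21 for *C1qa*, 0.63 for *C1qb* and 0.41 for *C1qc*, with edgeR adjusted p-values of 0.941, 0.792 and 0.894, and all 3 turned sign without *Pdgfra-Cre:LmnaF/F* replicate 4 alone, to -0.52, -0.32 and -0.49. That library also had the highest leukocyte sum (439 CPM), and its part in the C1q levels was not tested. Among the downstream genes, *Cfp*, which encodes properdin (-1.48), *Hc*, which encodes C5 (-1.40), and *C8g* (-0.56) had intervals that include 0. In limma-voom the values were -2.65, 1.19 and -2.37, and *Cfp* lay between -2.56 and -0.75 with 1 library left out.

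Over 9 tested regulators 6 were fitted higher and 3 lower. The log2 fold changes were 0.24 for *Cr1l*, the rodent C3 convertase inhibitor, 0.28 for *Cd59a*, which blocks the pore, 0.52 for *Cd46*, a membrane cofactor for the cleavage of C3b and C4b, and 0.79 for *Clu*, clusterin, which turned to -0.27 without *Pdgfra-Cre:LmnaF/F* replicate 4. With 1 library left out *Cd59a* lay between 0.14 and 0.48 and *Cd46* between 0.25 and 0.86. None of these 4 passed the test (edgeR adjusted p-values of 0.683, 0.843, 0.763 and 0.723).

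Of the 6 receptors tested, 3 were fitted higher and 3 lower. *C3ar1*, the receptor for the C3a fragment, stood at 1.40, 1.01, 2.08 and 2.90 CPM in WT and 1.35, 8.76, 13.8 and 6.58 CPM in *Pdgfra-Cre:LmnaF/F* (log2 fold change 2.0, SE 0.86, edgeR adjusted p = 0.373). In limma-voom the log2 fold change was 1.15. Of the 8 leukocyte markers 7 were tested, 5 were fitted higher and 2 lower in *Pdgfra-Cre:LmnaF/F* with a median log2 fold change of 0.50, and their sum overlapped between the groups. Their part in the *C3ar1* level was not tested. *Cd93*, once described as a receptor for C1q and known from endothelium, stood at 92.4, 52.3, 63.1 and 46.4 CPM in WT and 42.9, 40.4, 42.6 and 43.7 CPM in *Pdgfra-Cre:LmnaF/F* without overlap. Its log2 fold change was -0.59 (SE 0.24, edgeR adjusted p = 0.359), and -0.345 without WT replicate 1 (edgeR adjusted p = 0.733). Of the 29 other complement genes tested, 2 stood apart without overlap, both lower, beside 8.03% of all genes tested. The endothelial sum was also lower in every *Pdgfra-Cre:LmnaF/F* library than in any WT library, and its part in the *Cd93* level was not tested. *Itgax* and *Itgb2*, the chains of complement receptor type 4, had log2 fold changes of 0.84 and 0.87 with intervals that include 0. Without *Pdgfra-Cre:LmnaF/F* replicate 4 they were 0.23 and -0.78, so that the direction of *Itgb2* rested on that library.

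**Figure D4:**
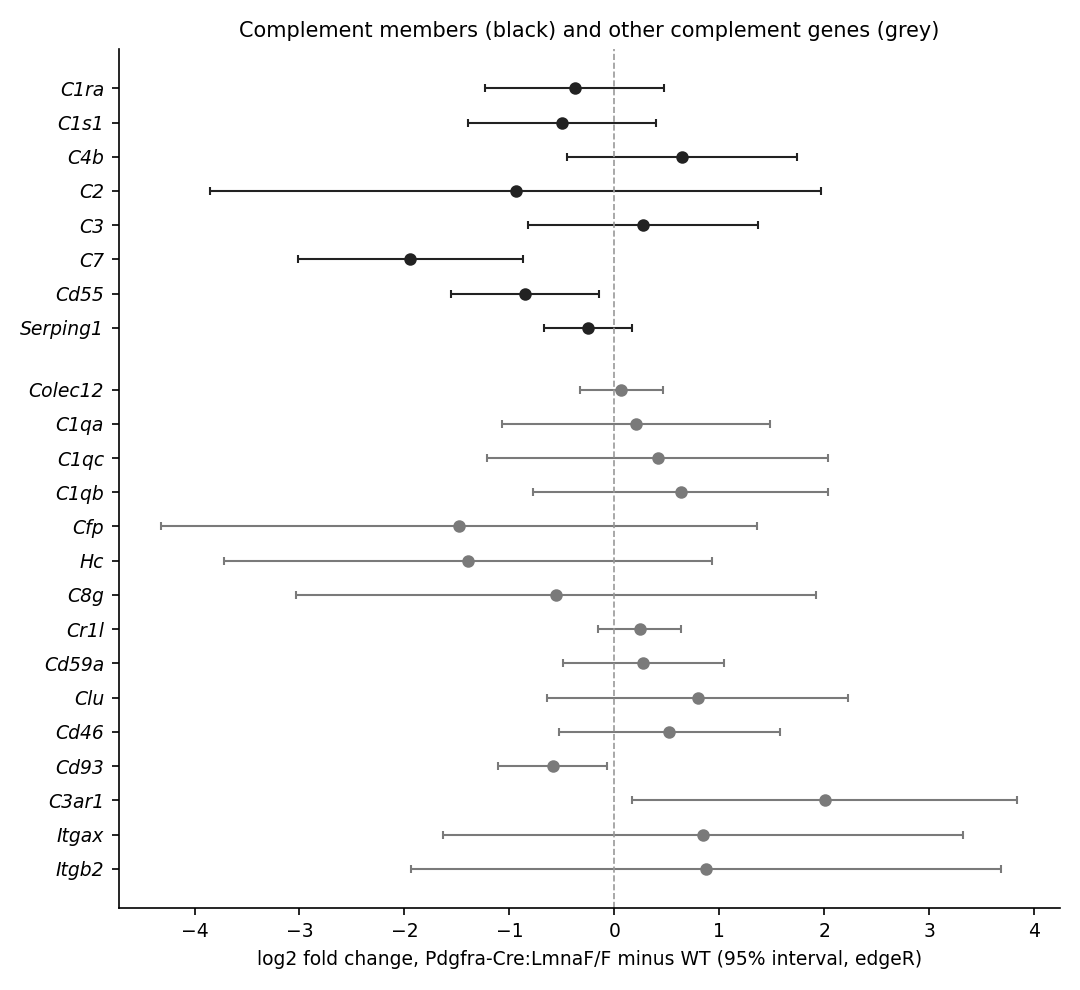
Log2 fold change between the genotypes (*Pdgfra-Cre:LmnaF/F* minus WT) with 95% intervals from edgeR for the 8 tested members (black) and other complement genes (grey). Among the members only the intervals of *C7* and *Cd55* leave out 0, both on the lower side.

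Genes that act on complement transcription were read from a list of 20 cytokines, receptors and factors of the acute-phase and interferon responses. All 20 were tested, 14 were fitted higher and 6 lower in *Pdgfra-Cre:LmnaF/F*, and the median log2 fold change was 0.31. Over all 13036 genes tested 6757 were fitted higher, with a median of 0.02. In edgeR 0 of the 20 passed the threshold (0.407% of all genes), while 7 higher and 1 lower had an unadjusted p under 0.05 (11.9% of all genes), and DESeq2 called 3, all higher (2.58% of the genes to which it gave an adjusted p), with no adjusted p for 1 of the 20. The 3 lowest p-values were those of *Socs3*, *Il6* and *Osmr*. *Socs3*, the feedback inhibitor of IL-6 family signalling, stood at 47.7, 64.4, 151 and 89.3 CPM in WT and 223, 208, 207 and 343 CPM in *Pdgfra-Cre:LmnaF/F* (log2 fold change 1.48, SE 0.31, edgeR adjusted p = 0.0627). *Il6* had 0 counts in 3 WT libraries and 0.518 CPM in the fourth, and 5.07, 14.8, 16.7 and 2.17 CPM in *Pdgfra-Cre:LmnaF/F* (edgeR adjusted p = 0.0709). *Osmr*, the oncostatin M receptor, stood at 76.2, 94.1, 137 and 87.1 CPM in WT and 157, 168, 163 and 168 CPM in *Pdgfra-Cre:LmnaF/F* (log2 fold change 0.73, SE 0.21, edgeR adjusted p = 0.160). Calls differed between tools. *Socs3* passed the threshold in DESeq2 (adjusted p = 0.0006) and limma-voom (0.00412). *Il6* passed it in DESeq2 (adjusted p = 8.24e-05), in edgeR without a filter (0.00436) and in edgeR without *Pdgfra-Cre:LmnaF/F* replicate 4 (0.0364), and *Osmr* passed it in limma-voom (0.0257) and DESeq2 (0.0483). Over the 20 genes the groups stood apart without overlap in 7, of which 5 were higher and 2 lower, beside 8.03% of all genes tested in either direction.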

How the data were processed

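Counts of 8 RNA-seq libraries of PDGFRA-positive, lineage-negative cardiac fibroblasts were analysed, 4 WT and 4 *Pdgfra-Cre:LmnaF/F*, grouped by the genotype in the labels. The authors used RNA with a RIN above 8 and sequenced strand-specific 150 bp paired-end libraries. The reads were aligned to mm10 with HISAT2 and counted with featureCounts on GENCODE genes, and the versions and the strand setting of the counting are not given in the sources used here. The authors deposited unscaled whole-number counts for each gene symbol, and the RUV normalization and DESeq2 test of their methods are not part of these counts. Of 18957 symbols 18918 matched GENCODE M21, and the lowest total over the 8 libraries was 4 counts. No 2 libraries agreed within sampling noise.

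The genotypes were compared in R 4.3.3 with edgeR 4.0.16 (TMM factors, filterByExpr, quasi-likelihood test, genotype as the only term, all 8 libraries), with Benjamini-Hochberg adjustment over all 13036 genes tested and a threshold of 0.05. Levels are TMM-scaled CPM, ± is the SD and SE is the standard error of the log2 fold change. Levels per length used the exon union of GENCODE M21, log2 CPM used a prior count of 2, and the floor was set at 3 counts per library, which covers counting error only. For the shares of near-identical copies, exact permutation tests (two-sided, 70 assignments) were used (Python 3.11.15, scipy 1.17.1). The fit was tested on simulated counts.

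The members and lists were chosen with earlier results of these data known. A gene of the other complement list is not reported here, and the counts of that list leave it out. Named genes were *Lmna*, the members, their copies, the other complement genes past the threshold in edgeR or DESeq2 and the 4 most abundant per role, the 3 lowest p-values of the list on transcription, and the 3 genes nearest in pattern to each member. Alternatives were DESeq2 1.42.0, limma-voom (limma 3.58.1) with quality weights, factors by RLE or by the upper quartile, no filter, at least 10 counts in every library, 1 RUVr factor in edgeR or DESeq2, a replicate block, longest transcripts, library totals, a root mean square distance, and each library left out.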

Additional observations from a re-analysis of the deposited data

Results flagged for a closer look

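Samples far from the other 3 of their group were found in 12 of 91 groups screened. They were judged by the gap to the nearest value over the range of the group (Dixon's criterion at the 95% level). Its rate of about 1 in 20 holds for independent, normally distributed values. The groups share libraries and some hold mostly values of 0, so that the 12 cannot be set against that rate. *Serping1* was low in *Pdgfra-Cre:LmnaF/F* replicate 3, at 1563 CPM beside 1980 CPM in the next library. In *Pdgfra-Cre:LmnaF/F* replicate 4, *C1qb* (32.4 CPM), *Socs3* (343 CPM), the leukocyte sum (439 CPM) and the myocyte sum (3122 CPM) were high. In WT replicate 4, *Cr1l* was high (188 CPM), *Itgb2* was low (0.828 CPM), and *Il6* was listed above 0 (0.518 CPM). The other 4 were genes near the floor: *Cfd* in WT replicate 1 (1.31 CPM), *C6* in *Pdgfra-Cre:LmnaF/F* replicate 1 (1.86 CPM), and *C8a* in WT replicate 2 (2.52 CPM) and *Pdgfra-Cre:LmnaF/F* replicate 3 (3.34 CPM). *Serping1* was the only one of the 9 members among them.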

How the results depend on the processing

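The number of DEGs was 53 in edgeR and moved to 303 with DESeq2, 138 with limma-voom, 274 without a filter, 83 with 1 RUVr factor, 457 with DESeq2 and 1 RUVr factor, and 13 to 76 when 1 library was left out (24 without WT replicate 1 or 2, 13 without WT replicate 4, and 26, 17 and 76 without *Pdgfra-Cre:LmnaF/F* replicates 2, 3 and 4). The members called numbered 1 with DESeq2, 1 without a filter (*C7* in both) and 2 with DESeq2 and 1 RUVr factor (*C7* and *Cd55*), and 0 when any 1 library was left out. Of the other complement genes reported, 0 were called under each alternative and without any 1 library. For all of these the cause was not tested. The adjusted p of *Socs3* lay between 2.65e-06 and 0.0716 over the alternatives that kept all libraries, and under the threshold in limma-voom, in DESeq2 and in edgeR with the RUVr factor, the block, no filter or at least 10 counts in every library, and without WT replicate 3 (0.0143). Over the alternatives that kept all libraries, that of *Il6* lay between 5.92e-05 and 0.177 and that of *Osmr* between 0.00377 and 0.211. Over the alternatives that kept all libraries, the edgeR, limma-voom and DESeq2 adjusted p of *C7* ranged from 0.000747 to 0.260 and that of *Cd55* from 0.0455 to 0.322, and with 1 library left out the edgeR adjusted p ranged from 0.0689 to 0.365 and from 0.127 to 0.573.

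Correlations of same-numbered libraries, after taking out the group means, were -0.03, -0.03, -0.004 and 0.04, and only replicate 4 matched its own number best. These values cannot decide whether the numbers pair the libraries. Each group holds only 4 libraries, and the labels do not say whether the numbers mark littermates. With the replicate block, 36 DEGs and 0 members were called, *C1qa* was at -0.21, *C1qc* at -0.51, *Itgb2* at -1.07 and *C1s2* at 1.63 on the log2 scale, and the calls of the members did not change.

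Signs also turned with limma-voom for *C1qc* (-0.39), *Hc* (1.19), *Itgb2* (-0.42), *C1rb* (0.061) and *C1s2* (3.74). Without WT replicate 2 and *Pdgfra-Cre:LmnaF/F* replicate 4 together, an alternative chosen after seeing the data, there were 37 DEGs and 0 members called, and the log2 fold change was -0.04 for *C3*, -0.01 for *Colec12*, -0.21 for *C1qa*, -0.40 for *C1qb*, -0.24 for *C1qc*, -0.68 for *Itgb2* and 0.37 for *C1s2*. With 1 library left out, ranges that crossed 0 were -0.40 to 0.63 for *C3*, -0.80 to 0.016 for *C1s1*, -0.018 to 0.11 for *Colec12*, -0.52 to 0.56 for *C1qa*, -0.32 to 1.33 for *C1qb*, -0.49 to 0.79 for *C1qc*, -0.27 to 1.11 for *Clu*, -0.78 to 1.28 for *Itgb2*, -1.26 to 0.25 for *C1rb*, -0.97 to 0.14 for *C1s2* and -0.10 to 0.24 percentage points for the difference in the share of *C1ra* with its copy. Per kb of the longest transcript, *Cd55* was at 47.3 and *Serping1* at 1186 CPM. *C2* and *Cfb* reached at most 46 and 72 counts, and WT replicate 3, with fewer total counts than WT replicates 1 and 4, had the highest WT count of both. With the replicate block *Cfp* was at -2.73 and *Itgax* at 0.14. With the root mean square distance the 3 nearest genes were the same for *C3* and *Cd55*, and 2 of 3 were shared for each of the other 6 members tested.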
